A study of Mus musculus with 11 samples.

Results

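The baseline transcriptome of the adult wild-type mouse hypothalamus was described from 5 RNA-seq libraries of the 11 in the series. They were chosen by their genotype label alone, WT, and the other 6 are labelled Het, in a study whose title names loss of MYT1L. All WT libraries came from mice aged postnatal day 60 to 70, and 2 were labelled female (WT replicates 4 and 6) and 3 male (WT replicates 3, 7 and 11). Whether each library holds 1 animal is not stated. The tissue is labelled hypothalamus, with no further dissection given, and the labels used here name no strain. Levels are given in CPM, a gene's corrected counts scaled by 1 factor per library that is not its total, as set out at the end. Genes are compared with each other only as CPM per kb, which divides the CPM by the summed length of the gene's exons. Myt1l, a zinc finger transcription factor of neurons, stood at 89.3, 70.5, 83.5, 87.2 and 51.1 CPM in WT replicates 3, 4, 6, 7 and 11. A level in 1 group does not check the genotype labels, and no comparison with Het was made.

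The hypothalamus is the part of the brain that links the nervous system to the hormone system and controls feeding, body temperature, water balance, sleep, stress responses and reproduction. Many of its neurons signal with neuropeptides, small proteins cut from larger precursors by proprotein convertases, packed with granins into dense-core vesicles and read by G protein-coupled receptors on other cells. Neurons of a given peptide can be few and still make much of its precursor mRNA per cell. In bulk tissue, fewer cells of a type and less RNA per cell cannot be told apart.

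Corrected counts totalled 23701175 to 24941704 per library, and 1 count stood for 0.0417 to 0.0422 CPM. The table held 14864 genes, 14858 of them annotated as protein coding, and 13160 (88.5%) had a mean of at least 1 CPM. A mean of at least 10 CPM was reached by 8359 genes, 100 CPM by 1924, 1000 CPM by 120 and 10000 CPM by 3. The sex labels were matched in all 5 libraries by the Y-linked genes described below. WT replicate 3 stood apart from the others, as set out with the spread between libraries, and the spread of the genes it moves most is given with and without it.

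The oxytocin and vasopressin precursors are shown first as sequence, because the 2 genes are neighbours on chromosome 2 with nearly identical neurophysin regions and their levels are close to each other. Their longest common stretch was 127 bases, at positions 144 to 270 of the Avp transcript and inside its coding part, which runs from 14 to 517. Of all stretches of 50 bases in the transcripts, 14.8% in Avp and 15.98% in Oxt also occurred in the other gene. The sources used here do not say how reads from that stretch were assigned, so the split between both genes is uncertain to that extent. The common stretch, read from the GENCODE M21 transcripts (GRCm38) and identical in both genes, is:
Avp and Oxt: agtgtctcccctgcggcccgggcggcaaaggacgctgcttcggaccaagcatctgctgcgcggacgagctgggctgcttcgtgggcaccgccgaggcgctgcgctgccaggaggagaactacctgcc

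Promoters of the peptide precursor genes held the letters TATAA, the core of the TATA box, in a larger share than those of other genes. The window from 40 to 15 bases before the start site was searched on the gene's strand in the RefSeq promoter entries of GRCm38.p6. The letters were found in 9 of 30 peptide precursor genes with an entry (30%), in 350 of 11627 genes of the table (3.01%) and in 42 of the 796 with an entry among the 1000 genes of highest level per kb (5.28%). The motif and window were chosen after the levels were known, and a match is a description, not a site. Below are 60 bases around the start of the 4 most abundant peptide genes with a match, 50 before it and 10 from it on, with TATAA in capitals. They lie at chr11:100762922-100762981 (Hcrt, minus strand), chr10:88091022-88091081 (Pmch, plus strand), chr6:92244641-92244700 (Trh, minus strand) and chr12:3954895-3954954 (Pomc, plus strand).
Hcrt: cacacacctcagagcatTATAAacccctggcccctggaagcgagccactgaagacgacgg
Pmch: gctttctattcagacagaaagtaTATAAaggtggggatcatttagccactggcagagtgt
Trh: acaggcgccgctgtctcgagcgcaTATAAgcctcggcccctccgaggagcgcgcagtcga
Pomc: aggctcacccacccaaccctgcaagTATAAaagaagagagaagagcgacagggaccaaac

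Few genes carried much of the RNA. The 10 most abundant genes of each library took 8.14 ± 0.33% (SD, n = 5) of its counts and the 100 most abundant 26.0 ± 0.41%. Summed over libraries, 15 genes made up 10% of all counts, 92 genes 25%, 499 genes 50%, 1833 genes 75% and 4366 genes 90%. The 13 protein genes of the mitochondrial genome took 4.66 ± 0.34% of the counts, the 78 cytosolic ribosomal protein genes 4.85 ± 0.44% and 80 nuclear genes of oxidative phosphorylation 4.21 ± 0.21%. Between libraries these shares ran from 4.29 to 5.18%, from 4.38 to 5.36% and from 3.95 to 4.47%.

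Per kb, mitochondrial transcripts led the order. mt-Cytb, the cytochrome b subunit of respiratory complex III, was the most abundant at 11555 ± 1280 CPM per kb (SD, n = 5). It was followed by mt-Nd1 of complex I at 9356 ± 999 and mt-Co1 of complex IV at 7744 ± 1045 CPM per kb, and these 3 genes kept their ranks in every library. Ubb, a polyubiquitin gene, ranked 4 at 5573 ± 354 CPM per kb. For mt-Co1 and Ubb, 51.1% and 61.0% of the 50-base stretches also occurred in other annotated genes, mostly pseudogenes, so their levels depend on how such reads were counted.

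Secreted and housekeeping products led the nuclear transcripts. Cst3, the cystatin C protease inhibitor, reached 4538 ± 338 CPM per kb. Ptgds, the lipocalin-type prostaglandin D synthase, had 3813 ± 437, and the selenoprotein gene Selenow 3539 ± 222 CPM per kb. Apoe, the lipid carrier made chiefly by astrocytes, averaged 3311 ± 754 CPM per kb. Its CPM were 4838, 9104, 7155, 6356 and 7941 in WT replicates 3, 4, 6, 7 and 11, so that its rank ran from 6 to 13. Apoe was the most variable of the 25 genes of highest level, with an SD of 0.35 on the log2 scale, and was lowest in WT replicate 3. Other genes of the leading 25 were Fth1 (ferritin heavy chain), Calm2 (calmodulin), Actb (beta-actin), Stmn3 (a tubulin-binding stathmin), Ckb (brain creatine kinase), Aldoa and Ldhb (glycolysis), Eef1a1 (translation elongation) and the cytochrome oxidase subunits Cox6a1 and Cox4i1. Ldhb varied least among the 25, with an SD of 0.038 and 2033 to 2169 CPM. By CPM alone, which favours long transcripts, the leading 10 were mt-Cytb, mt-Co1, Fth1, Ubb, mt-Nd1, Apoe, Ptgds, Actb, Cst3 and Ckb.

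Neuropeptide precursors stood high in this order. Of 46 listed precursors, 40 were in the table and 37 had a mean of at least 1 CPM. Nmu, Ucn and Calcb were under 1 CPM, and Kiss1, Npff, Galp, Npw, Nps and Gcg were not analysed here. The 37 had a median level of 20.1 CPM per kb and a median percentile of 82.9 among all genes of the table. The 13160 genes at 1 CPM or more had a median level of 3.58 CPM per kb and a median percentile of 55.7. The 40 precursors in the table together took 0.646 ± 0.038% (SD, n = 5) of the counts. Between neighbours in the order of these 37 levels, the ranges over the 5 libraries did not overlap for 8 of 36 pairs and overlapped for 28.

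Hcrt, which encodes the orexins of the lateral hypothalamus that sustain wakefulness, was the most abundant peptide transcript. It was read at 938, 1476, 1393, 1214 and 1146 CPM in WT replicates 3, 4, 6, 7 and 11. Its level of 1647 ± 283 CPM per kb ranked 17 among all genes, between 14 and 29 in single libraries. Its lowest library lay above the highest library of any other peptide precursor per kb. The gene (ENSMUSG00000045471) lies at chr11:100761069-100762931 on the minus strand of GRCm38, and its promoter carries one of the TATAA matches printed above.

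A group of 5 precursors followed within a narrow span. Avp (vasopressin, which retains water) had 808 ± 151 CPM per kb, Sst (somatostatin, which inhibits growth hormone release) 739 ± 36, Oxt (oxytocin, of milk ejection and social behaviour) 729 ± 183, Pmch (melanin-concentrating hormone, which promotes feeding and sleep) 720 ± 124 and Penk (enkephalins) 688 ± 79. The ranges of neighbours in this group overlapped, and their order held in 3 of 5 libraries for each neighbouring pair. Pmch shares 435 exonic bases with Parpbp on the other strand, and 48.4% of its 50-base stretches occur in that gene. Strand use in the counting is unknown from the sources used here, for this and other overlapping genes.

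Avp and Oxt, made by magnocellular neurons for release from the posterior pituitary, were the least even of the abundant precursors. Avp had 359, 550, 555, 404 and 462 CPM in WT replicates 3, 4, 6, 7 and 11. Oxt had 296, 503, 486, 304 and 369 CPM in the same order. Both were higher in the 2 female libraries than in any of the 3 male libraries. Neither was called between the sexes in the limma fit described below. The share of all genes that separate the sexes in this way was not counted. Their ratio was steadier than either gene, between 1.09 and 1.33 in the 5 libraries. Sst, by contrast, ran only from 509 to 562 CPM, an SD of 0.071 on the log2 scale against 0.27 for Avp and 0.36 for Oxt.

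**Figure D1:**
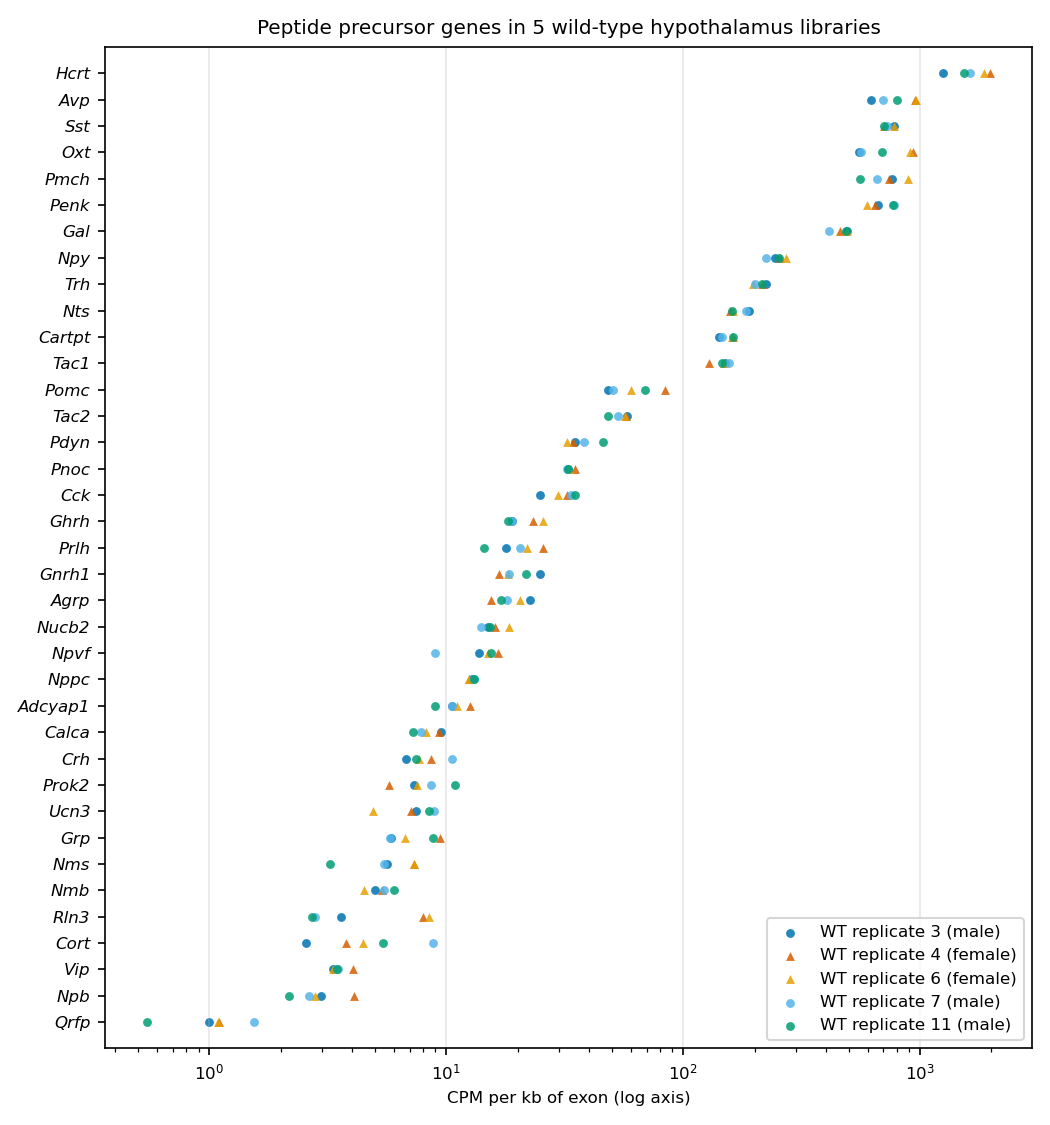
Level of the 37 peptide precursor genes with a mean of at least 1 CPM, in CPM per kb of exon on a log axis, with 1 point per library (circles male, triangles female). Levels span from Hcrt at 1647 CPM per kb to Qrfp at 1.06, and most neighbouring genes overlap.

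A second tier held the feeding, stress and metabolic peptides of the arcuate and neighbouring nuclei. Gal (galanin) had 467 ± 33 CPM per kb, Npy (neuropeptide Y, which promotes feeding) 250 ± 18, Trh (thyrotropin-releasing hormone) 210 ± 11, Nts (neurotensin) 171 ± 15, Cartpt (an appetite-reducing peptide) 154 ± 9.9 and Tac1 (substance P) 146 ± 10. Their SDs on the log2 scale were 0.076 for Trh to 0.12 for Nts. Pomc, the precursor of the appetite-reducing melanocortins, was lower and less even at 63.8, 111, 79.3, 66.4 and 91.0 CPM in WT replicates 3, 4, 6, 7 and 11. Agrp, made with Npy in the neurons that oppose Pomc neurons, had 18.7 ± 2.9 CPM per kb. Its exons overlap Ctcf on the other strand by 114 bases.

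Ghrh, Gnrh1 and Crh lay below Trh. Ghrh, which releases growth hormone, had 20.97 ± 3.21 CPM per kb, Gnrh1, the gonadotropin-releasing hormone of scattered neurons, 19.99 ± 3.34, and Crh, which starts the stress response, 8.19 ± 1.5. Tac2 and Pdyn, which with Kiss1 mark a class of arcuate neurons, had 54.7 ± 4.1 and 37.1 ± 5.35 CPM per kb. Vip, a peptide of the suprachiasmatic clock, had 3.53 ± 0.29 CPM per kb, and its partners there Grp and Prok2 had 7.31 ± 1.7 and 8.00 ± 1.9. The least even peptide was Rln3 (relaxin-3, made mostly by brainstem neurons) at 2.28, 5.05, 5.37, 1.76 and 1.72 CPM in WT replicates 3, 4, 6, 7 and 11. It was higher in both female libraries than in any male one, but was not called between the sexes (limma adjusted p = 0.861). As for Avp and Oxt, the share of all genes with such an order was not counted.

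Granins, which help pack these precursors into vesicles, were abundant. All 7 were at 1 CPM or more, with Scg2 (secretogranin II) at 454 ± 22 CPM per kb, Scg5 (the 7B2 chaperone of PC2) at 401 ± 15 and Chgb at 121 ± 3.4. These 3 and Scg3 had SDs of 0.041 to 0.071 on the log2 scale. Chga, a granin of the same vesicles, ran from 306 to 612 CPM. Pcsk1n, which encodes the PC1 inhibitor proSAAS, had 53.9, 115, 312, 86.2 and 157 CPM in WT replicates 3, 4, 6, 7 and 11 and was the most uneven of the 7. Chga and Pcsk1n were both lowest in WT replicate 3. The 12 processing and secretion genes had a median of 5.35 CPM per kb, and 5 of them had an SD over the median of all genes. Cpe (carboxypeptidase E, which trims the cut peptides) led the processing genes at 703 ± 48 CPM per kb. Pcsk2 (PC2) had 14.2 ± 0.55 and Pcsk1 (PC1/3) 6.73 ± 0.43 CPM per kb, with SDs of 0.056 and 0.089 on the log2 scale.

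Receptors for peptides and hormones lay far lower than the leading ligands. Of 51 listed, 47 were in the table and 40 reached 1 CPM, with a median of 1.74 CPM per kb and a median percentile of 41.7. None was among the 1000 genes of highest level. Ntsr2, a neurotensin receptor of astrocytes, was the highest at 56.6 ± 19.96 CPM per kb, and WT replicate 6 alone had 285 CPM where the others had 135 to 172. Oprl1 (the nociceptin receptor) had 17.9 ± 0.87, Mchr1 (for melanin-concentrating hormone) 10.7 ± 2.7 and Sstr2 (for somatostatin) 8.28 ± 1.2 CPM per kb. The orexin receptors Hcrtr1 and Hcrtr2 had 3.95 ± 0.63 and 1.14 ± 0.25 CPM per kb. The leptin receptor Lepr had 0.280 ± 0.052 and the ghrelin receptor Ghsr was under 1 CPM. Receptor genes varied by a median SD of 0.31 on the log2 scale, near the 0.27 of all genes between 3 and 10 CPM.

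Nuclear hormone receptors and regional transcription factors were low as well. Thra, the thyroid hormone receptor alpha, had 18.5 ± 4.5 CPM per kb and Nr3c1, the glucocorticoid receptor, 5.09 ± 0.40. Thra shares 263 exonic bases with the clock gene Nr1d1 on the other strand. Of 36 transcription factors known from hypothalamic development, 33 were in the table and 31 reached 1 CPM. Dlx5 (14.1 ± 2.0 CPM per kb), Isl1 (11.3 ± 1.4), Fezf1 (7.40 ± 0.62) and Lhx6 (6.87 ± 1.1) were the highest. Sim1 and Otp, of the paraventricular nucleus, Nr5a1, of the ventromedial nucleus, and Nkx2-1, of the ventral hypothalamus, had 0.176 to 1.10 CPM per kb. The tissue label is thus matched by abundant Hcrt, Pmch, Avp, Oxt and Trh, and these nuclear markers were present at low levels.

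Genes of GABA, glutamate and dopamine neurons were all represented. Gad1 and Gad2, the enzymes that make GABA, had 42.4 ± 3.3 and 31.7 ± 3.2 CPM per kb. The vesicular glutamate transporter Slc17a6, the form used by subcortical neurons, had 29.2 ± 2.8 CPM per kb, while the cortical form Slc17a7 had 1.05 ± 0.37. The dopamine genes Th and Slc6a3 were less even than Gad1, Gad2 and Slc17a6. Th, the tyrosine hydroxylase of dopamine synthesis, had 284, 239, 287, 154 and 160 CPM in WT replicates 3, 4, 6, 7 and 11, with a mean level per kb above that of Gad1. Slc6a3, the dopamine transporter, had 112, 74.3, 95.1, 52.2 and 47.5 CPM in the same order. Both were lower in WT replicates 7 and 11 than in the other 3 libraries. Hdc, which makes histamine in the tuberomammillary nucleus, stood at 6.46 ± 0.56 CPM per kb.

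Markers of neurons, astrocytes and mature oligodendrocytes were abundant, and their sums were even. The 14 neuronal markers summed to 8188 to 8638 CPM, a ratio of 1.05 between the highest and the lowest library. Snap25, a fusion protein of synaptic vesicles, had 411 ± 17 CPM per kb and the neuronal tubulin Tubb3 730 ± 37. The 12 astrocyte markers summed to 5980 to 7068 CPM, led by Aldoc at 964 ± 73.2 and Agt, the angiotensinogen gene, at 389 ± 43 CPM per kb. The 12 markers of mature oligodendrocytes, the myelin-forming cells, summed to 10488 to 12205 CPM and had the highest median of these classes, 100 CPM per kb. Mbp, the myelin basic protein gene, had 508 ± 35 CPM per kb. Cnp was the steadiest at 1352 to 1428 CPM and Hapln2 the least steady at 2.11 to 18.01 CPM. Oligodendrocyte precursors were represented at lower levels, with Olig1 at 14.6 ± 2.4 and Gpr17 at 2.73 ± 0.22 CPM per kb.

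Microglia, vessels and the ventricle wall were seen at lower levels. The 12 microglial markers summed to 725 to 799.5 CPM, led by the complement gene C1qb at 224 ± 12 CPM per kb, and P2ry12 had 31.3 ± 2.9. Endothelial markers summed to 310 to 423 CPM. Within the list, WT replicate 7 was highest for Ly6a (84.5 CPM against 59.5 to 65.1) and WT replicate 4 for the tight junction gene Cldn5 (47.4 CPM against 27.6 to 32.8). The mural list ran from Vtn at 85.8 ± 3.9 CPM per kb to Myh11 at 0.204 ± 0.19, and the smooth muscle actin gene Acta2 varied between 13.2 and 35.6 CPM. Tanycytes, the glia that line the floor of the ventricle below the thalamus, were marked by Crym at 30.7 ± 4.6 and Vim at 10.3 ± 1.3 CPM per kb, neither specific to them, while Rax, their defining factor, had a mean of 0.722 CPM. All 6 ependymal markers were at 1 CPM or more and summed to 73.8 to 106 CPM.

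**Figure D2:**
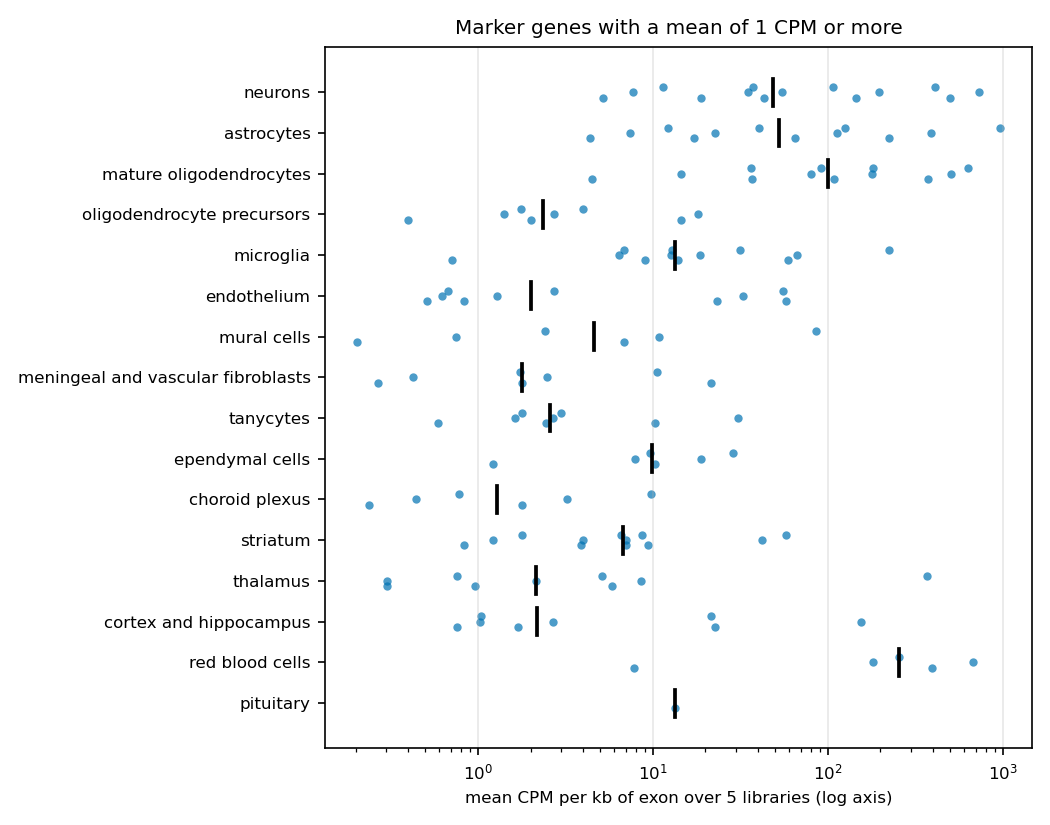
Mean level over 5 libraries of each marker gene with a mean of at least 1 CPM, in CPM per kb of exon on a log axis, by cell class or neighbouring region. Points are genes and vertical bars are medians, the highest for a brain cell class being 100 CPM per kb in mature oligodendrocytes.

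Markers of tissue next to the hypothalamus were measured too, and they differed between libraries. Of 4 pituitary genes in the table only Cga reached 1 CPM, at 8.98 to 15.3 CPM, and it shares 305 exonic bases with Platr9 on the other strand. Tshb, Fshb and Tbx19 were under 1 CPM and 5 more listed genes were not analysed here. All 12 striatal genes were at 1 CPM or more and summed to 444 to 749 CPM. Ppp1r1b, the DARPP-32 gene of striatal projection neurons, had 83.4, 213, 131, 166 and 254 CPM in WT replicates 3, 4, 6, 7 and 11. WT replicate 11 was highest for 9 of the 12 striatal genes, and for 16.7% of all genes at 10 CPM or more. Of the 8 cortical and hippocampal genes at 1 CPM or more, only 3 were highest in WT replicate 11. Neurod6 was among these 3, at 9.45 CPM against 3.12 to 7.39, while Emx1, Tbr1 and Neurod2 had means under 1 CPM. Thalamic genes summed to 687 to 770 CPM, most of it Calb2 (598 to 684 CPM). Calb2 is also a gene of hypothalamic neurons. Part of these differences followed the GC content of the transcripts, described below. With the trend on GC content and length taken out, the mean deviation of the striatal list went from -0.15 to -0.040 in WT replicate 3. In WT replicate 11 it went from 0.30 to 0.23. The part of neighbouring tissue in these and other results was not tested.

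Ttr and the red cell genes varied widely between libraries. Ttr, the transthyretin of choroid plexus, was read at 1.77, 16.9, 29.9, 1.51 and 7.90 CPM in WT replicates 3, 4, 6, 7 and 11, a span of 19.8 fold. Other plexus genes ranged less: Kcnj13 ran from 3.53 to 4.42 CPM and Folr1 from 1.42 to 2.53 CPM, with WT replicate 3 highest. Kcnj13 shares 623 exonic bases with Gigyf2 on the other strand. The 5 red cell genes summed to 1739, 516, 2080, 943 and 497 CPM in WT replicates 3, 4, 6, 7 and 11. Hbb-bs, an adult beta globin, had 788, 232, 931, 430 and 216 CPM in that order. All 4 globin genes and Alas2, the heme enzyme of red cell precursors, were highest in WT replicate 6 and next in WT replicate 3. Of all genes at 10 CPM or more, 14.0% were highest in WT replicate 6. Globin pairs kept their proportions, with Hba-a1 over Hba-a2 between 1.78 and 1.99 and Hbb-bs over Hbb-bt between 3.86 and 4.35. The pairs are near copies, with identical runs of 415 and 430 bases, so the split between members is uncertain.

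**Figure D3:**
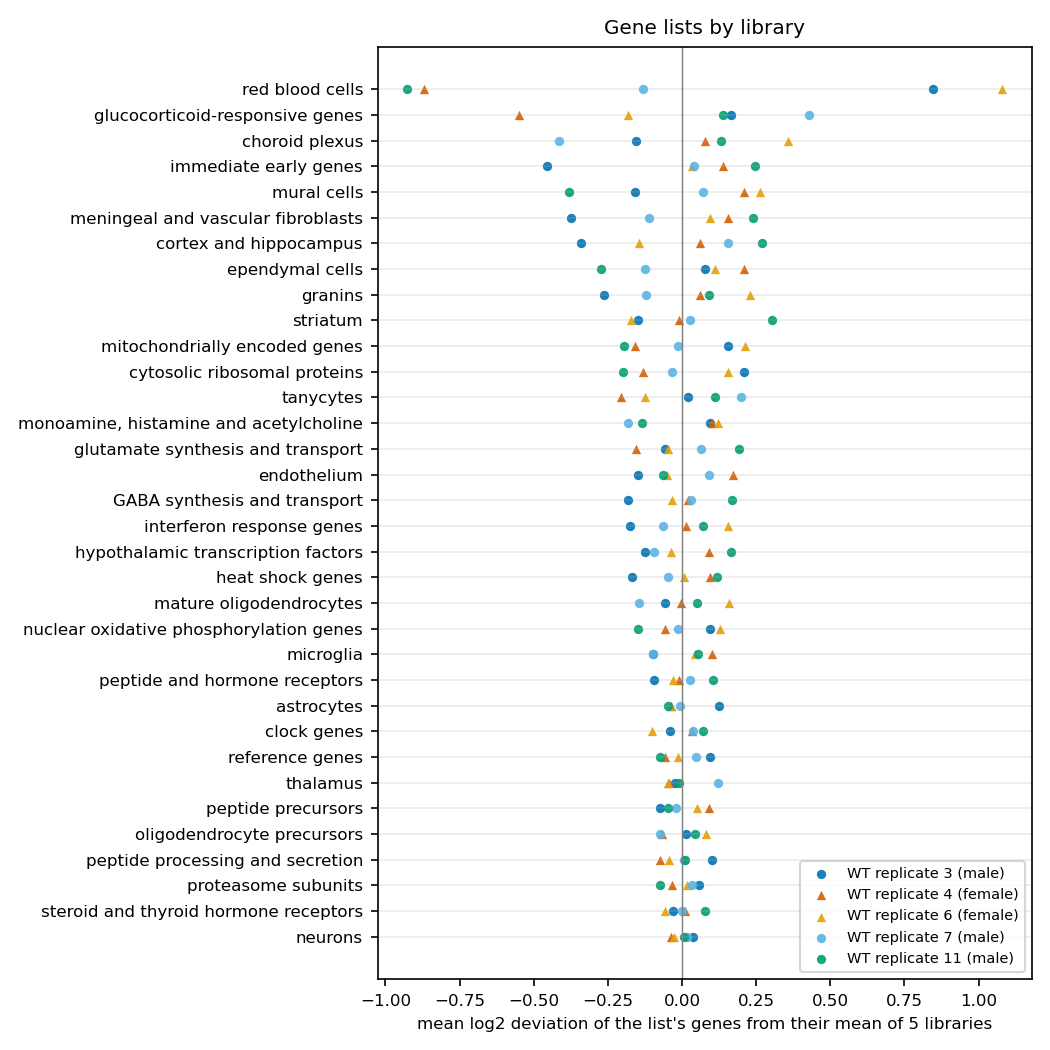
Mean log2 deviation of each gene list from its own mean over the 5 libraries, with 1 point per library (circles male, triangles female) and lists in order of their spread, without the pituitary list and the sex chromosome lists. Of the lists drawn, red blood cell genes spread most, with an SD of 0.94, and neuronal markers least, with an SD of 0.030.

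State-dependent genes also varied. Of 9 glucocorticoid-responsive genes, all at 1 CPM or more, WT replicate 7 was highest for 6 and WT replicate 4 lowest for 6. Over the 8359 genes at 10 CPM or more, WT replicate 7 was highest for 17.0% and WT replicate 4 lowest for 22.1%. Sgk1, a kinase induced by corticosteroids, had 576, 143, 283, 512 and 383 CPM in WT replicates 3, 4, 6, 7 and 11. Tsc22d3, the leucine zipper GILZ, had 636, 329, 428, 643 and 496 CPM in that order. Both were higher in all 3 male libraries than in the 2 female ones, but neither was called between the sexes (limma adjusted p = 0.861 for each). Here too the share of all genes that separate the sexes was not counted. Immediate early genes, which rise within minutes of neuronal activity, were lowest in WT replicate 3 for 11 of 15. That library was lowest for 25.4% of all genes at 10 CPM or more. Arc, for example, had 12.9 CPM there and 24.6 to 33.5 CPM in the other libraries, while Fos had 41.3 to 54.4 CPM over all 5. The SD of the list's mean deviation was 0.27, 0.10 without WT replicate 3, and 0.18 with the trend on GC content described below taken out. The 17 core clock and output genes, which cycle over the day, summed to 491 to 571 CPM. Gene by gene they were about as variable as other genes, with a median SD of 0.21 on the log2 scale against 0.20 for all. Of the 17, 9 lay above the median of all genes. Interferon response genes summed to 181 to 194 CPM, though 8 of the 10 had an SD above the median of all genes. Isg15 stood out in WT replicate 6, at 10.03 CPM against 5.18 to 6.22.

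Spread between libraries was measured as the SD over the 5 libraries of log2(CPM + 0.5). Its median over the 13160 genes was 0.20. The spread fell with level, from a median of 0.38 between 1 and 3 CPM to 0.19 between 10 and 30, 0.11 between 100 and 300 and 0.098 at 1000 CPM or more. Counting error alone, computed from the corrected counts, would give 0.17 in the first of these classes and 0.0075 in the last. Among the 8359 genes at 10 CPM or more, 135 had an SD over 0.5 and 6 an SD over 1. An SD from 5 values is imprecise: its 95% interval under a normal spread runs from 0.599 to 2.87 times the value. The authors' correction had already taken variation out of the table, so these SDs describe corrected data.

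**Figure D4:**
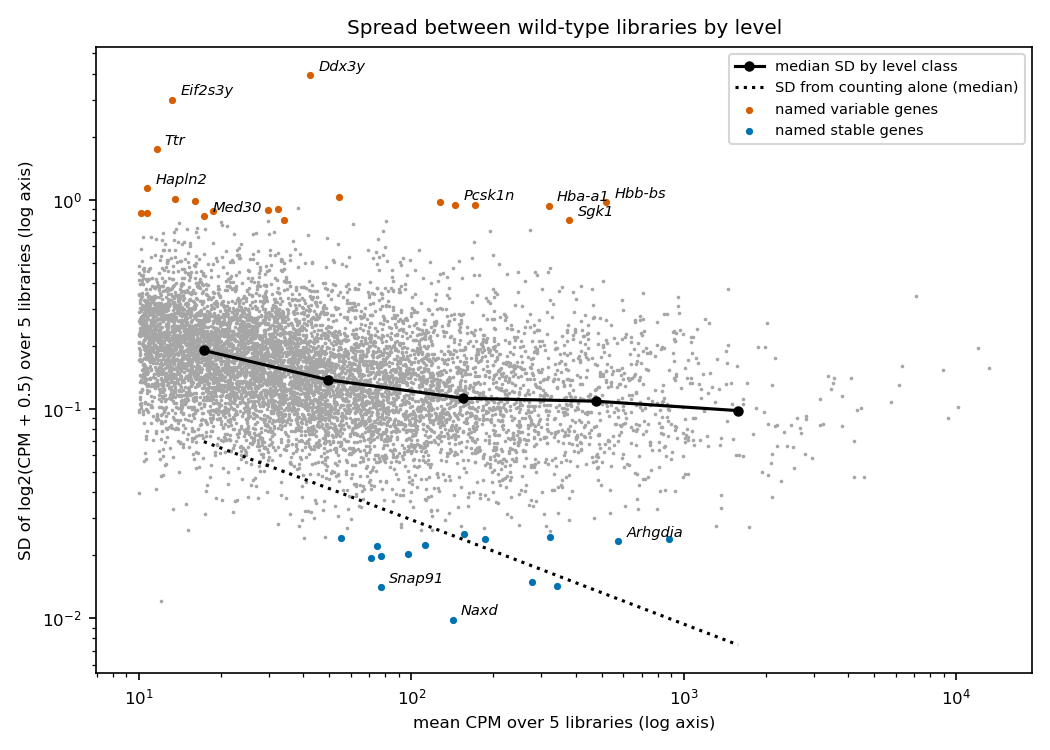
SD of log2(CPM + 0.5) over 5 libraries against mean CPM, both axes log, for the 8359 genes at 10 CPM or more, with the 20 most variable named genes in orange and 15 of the least variable in blue. The line joins the median SD of each level class and the dotted line gives the median SD that counting alone would give.

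Genes of the Y chromosome, blood and choroid plexus were among the 20 most variable at 10 CPM or more. They were chosen on the values described here, so no test applies. Y-linked Ddx3y and Eif2s3y led, listed at 0 in the 2 females. Ttr came next, and the 4 globins, Alas2 and Sgk1 were among the rest. Hapln2, a link protein of the node of Ranvier, had 2.11, 11.9, 18.01, 6.79 and 14.6 CPM in WT replicates 3, 4, 6, 7 and 11. Hes5, a Notch target of glial progenitors, had 3.54, 15.6, 12.8, 5.79 and 13.1 CPM. Eml2 (a microtubule-binding protein), Lcmt2 and Gtpbp3 (tRNA modification), Ssbp4, Sf3a2 (a splicing factor), Tmem198 and H2afx (the H2A.X histone) were each lowest in WT replicate 3. Lcmt2, for example, had 3.08 CPM there and 12.5 to 18.1 CPM elsewhere. Without WT replicate 3 the SD of Lcmt2 went from 1.01 to 0.24, that of Tmem198 from 0.89 to 0.31 and that of Hapln2 from 1.13 to 0.58. The SD of Eml2 then went from 1.02 to 0.56, that of Ssbp4 from 0.99 to 0.40, that of H2afx from 0.80 to 0.42 and that of Hes5 from 0.86 to 0.60. Sf3a2 and Gtpbp3, at 0.90 and 0.86, both had 0.56 without it. Med30, a Mediator subunit, was high in WT replicate 6 alone, at 39.9 CPM against 9.40 to 15.5.

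The 15 named genes of smallest spread at 50 CPM or more had SDs of 0.0098 to 0.025. Naxd, which repairs damaged NADPH, had 140 to 142 CPM in all 5 libraries, an SD of 0.0098 on the log2 scale. Snap91 (AP180, of synaptic vesicle coats) had 76.3 to 78.2 CPM, Psmd7 (a proteasome lid subunit) 338 to 346, Mrap2 (an accessory protein of melanocortin receptors) 69.3 to 71.7 and Arhgdia 563 to 589 CPM. Of the 15 named stable genes the other 10 were Adprh, Litaf, Mrpl49, Acaa2, Morn4, Wdr1, Nsg1, Emd, Cops8 and Dctn5. The SD of Naxd lies below its counting SD of 0.025, and these genes were chosen as the lowest of 3370 with at least 50 CPM, so their order is not resolved. The 17 usual reference genes had a median SD of 0.12, with Pgk1 at 0.053, Sdha at 0.051, Gapdh at 0.084, Actb at 0.13 and Tfrc highest at 0.27. Ribosomal protein genes moved together, with a mean deviation from 0.21 in WT replicate 3 to -0.20 in WT replicate 11.

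WT replicate 3 differed most from the other libraries. The SD of its deviations from the gene means was 0.25 on the log2 scale, against 0.15 to 0.19 in the other 4. It was the lowest library for 83 of the 100 most variable genes. Over all 8359 genes at 10 CPM or more it was the highest library for 33.3% and the lowest for 25.4%. The pair of WT replicates 3 and 4 differed by over 2 fold for 199 of 8359 genes, and the closest pair, WT replicates 4 and 11, for 9. Pairs with the same identifier prefix, whose meaning the labels do not give, were WT replicates 3 and 7 with 52 such genes and WT replicates 6 and 11 with 21. Without WT replicate 3, the median SD was 0.17 and the count of genes with an SD over 0.5 fell from 135 to 44.

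Deviations of the libraries followed the GC content of the transcripts. Across the 8357 genes at 10 CPM or more with a transcript sequence, Pearson's r between GC content and deviation was -0.47 in WT replicate 3, 0.39 in WT replicate 4, 0.022 in WT replicate 6, -0.12 in WT replicate 7 and 0.33 in WT replicate 11. These are descriptions across genes, which are not independent replicates, and the 5 deviations of a gene sum to 0. In the 836 genes with the lowest GC content, under 41.1%, the median deviation was 0.18 in WT replicate 3 and -0.12 in WT replicate 4. In the 836 with the highest, above 57.3%, it was -0.21 and 0.12. The 100 most variable genes had a median GC content of 58.6%, against 49.3% for all. Apoe (59.5%), Eml2 (61.3%), Ssbp4 (64.3%) and Sf3a2 (62.2%) are among these GC-rich genes, whereas Ttr (46.5%), Sgk1 (48.6%) and Med30 (43.7%) are not. When a smooth trend on GC content and length was taken out of each library, 70 genes had an SD over 0.5, the SD of Ssbp4 went from 0.99 to 0.74, and those of Ttr (1.74 and 1.76) and Sgk1 (0.80 in both) hardly moved. Within sex the SD of Ttr was 0.99 and that of Sgk1 0.47, and without WT replicate 4 that of Sgk1 was 0.46. Taking out the trend on GC content and length was a setting chosen after seeing the data.

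**Figure D5:**
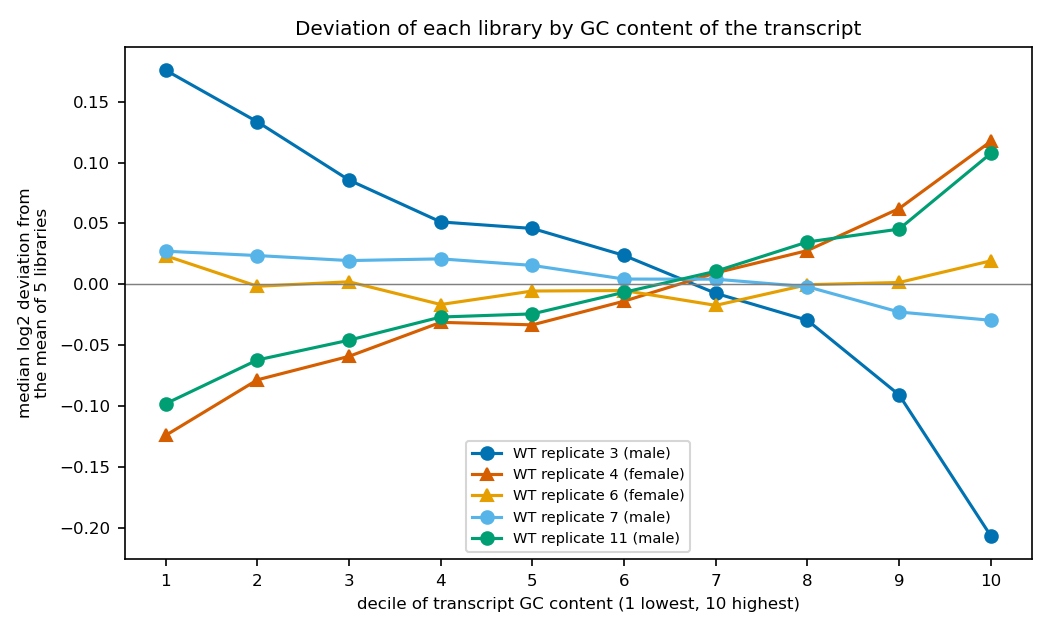
Median log2 deviation from the mean of 5 libraries by class of transcript GC content (10 classes of nearly equal gene number), 1 line per library (circles male, triangles female). WT replicate 3 falls from 0.18 in the lowest class to -0.21 in the highest, and WT replicates 4 and 11 rise.

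Sex was the only labelled factor that varied within WT. A limma fit of 2 females against 3 males called 4 of 13160 genes (0.0304%) at an adjusted p (Benjamini-Hochberg) under 0.05, all Y-linked and higher in males, and 726 genes had an unadjusted p under 0.05. Ddx3y, an RNA helicase, had 80.2, 72.2 and 59.9 CPM in the males and was listed at 0 counts in both females (limma adjusted p = 2.84e-07). Against a floor of 3 counts per library it was at least 562-fold higher in males. Eif2s3y, a translation initiation factor, was at least 175-fold higher (limma adjusted p = 1.28e-05). Uty and Kdm5d, histone demethylase genes, were also listed at 0 in both females and were at least 60.6-fold and 46.1-fold higher in males (limma adjusted p = 0.00065 and 0.00114). Their X-linked partners Ddx3x, Eif2s3x, Kdm5c and Kdm6a, which escape X inactivation, were higher in both females than in every male but missed the threshold. How large a share of all genes separates the sexes in this way was not counted. Ddx3x, for instance, had 82.5 and 82.1 CPM in females and 54.2 to 64.2 CPM in males, which is 0.47 ± 0.11 (SE) on the log2 scale with a limma adjusted p of 0.861.

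No other gene passed this test. With the identifier prefix as a term, a fit chosen after seeing the data, the contrast rests on WT replicates 6 and 11, the only prefix with both sexes. There the 4 globin genes were higher in the female library, by log2 differences of 1.99 to 2.11. The residual spread of this fit comes only from the male WT replicates 3 and 7, so no spread between females is measured. Across the other prefixes the order was reversed: red cell genes summed to 1739 CPM in male WT replicate 3 and 516 CPM in female WT replicate 4. In the fit without that term, Oxt came next after the Y-linked genes. It had a log2 difference of 0.62 ± 0.11 (SE) between females and males and a limma adjusted p of 0.861. Ttr, at 2.77 ± 0.55 (SE) higher in females, and Sgk1, at -1.26 ± 0.26 (SE), had the same adjusted p. A p that misses the threshold here does not show that a gene is equal in the sexes. Because each sex holds so few libraries, sex cannot be told apart from other differences between these animals.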

How the data were processed

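Per the labels, a Zymo kit served for RNA extraction and the SMARTer Ultra Low kit for library preparation. The submitters' processing notes name Trimmomatic, Bowtie2, STAR, HTSeq and mm10, without versions. Strand use, the gene filter and raw depth are unknown from the sources used here. The authors deposited log2 CPM plus a constant, in a table named as RUVr-corrected (a removal of unwanted variation). The design had assumed linear CPM. CPM were therefore recovered by undoing the log and subtracting the common floor (log2 -3.57), which gave whole multiples of 1 step for 100% of values within a tolerance of 0.02. Totals are thus of corrected counts. The upper quartile was the same in all 5 libraries, at log2 5.47. WT replicate 3 had both the largest total and the largest CPM per count, so the CPM were not scaled to the totals. Over all 11 libraries 1 direction had almost no variation left (singular value 0.443, next 20.9), so limma p-values may be too small. They measure the spread between these samples, which may be technical.

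Exon lengths came from GENCODE M21 (14862 of 14864 genes matched). Spread was the SD of log2(CPM + 0.5). Sex was tested with limma 3.58.1 in R 4.3.3 (trended eBayes, two-sided, Benjamini-Hochberg), checked on simulated data. In the simulation the fit called 9 of 67 genes changed 1.5-fold, 27 of 67 changed 2-fold and 58 of 66 changed 4-fold. It also called 5 unchanged genes. Named genes were the 25 protein-coding genes highest per kb, the 10 highest by CPM, up to 4 members of each list (all peptide precursors at 1 CPM or more, all reference and Y-linked genes), the 20 most variable at 10 CPM or more and the 15 most stable at 50 CPM or more (both without predicted genes), and Y-linked genes with X-linked partners. Other names, including Myt1l and further list members, were chosen after their values were seen. Members, the 37 lists and the rules were chosen with earlier results of these data known.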

Additional observations from a re-analysis of the deposited data

Results flagged for a closer look

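In 15 of 268 sets of 5 libraries (5.60%) 1 library stood apart from the other 4, by a gap of over 0.71 of the whole range (Dixon's 95% value). Chance flags about 1 in 20 such sets.

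Among peptide genes, Pnoc (75.1 CPM against 69.6 to 71.0) and Vip (13.7 against 11.3 to 11.9) were high in WT replicate 4. The neurotensin receptor Ntsr2 was high in WT replicate 6 (285 CPM against 135 to 172). The transcription factor Fezf1 was low in WT replicate 3 (15.2 CPM against 17.99 to 18.8).

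Of glial genes, Cnp (1428 CPM against 1352 to 1358) and Mog (336 against 297 to 304) were high in WT replicate 3, and Gpr17 was low in WT replicate 4 (12.2 against 14.3 to 15.04). Of vessel genes, Ly6a was high in WT replicate 7 (84.5 CPM against 59.5 to 65.1) and Cldn5 in WT replicate 4 (47.4 against 27.6 to 32.8). The ependymal gene Tmem212 (9.75 CPM against 13.6 to 14.97) and the choroid plexus gene Kcnj13 (3.53 against 4.17 to 4.42) were low in WT replicate 11. The striatal gene Gng7 was high there (211 CPM against 137 to 154).

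The interferon gene Isg15 (10.03 CPM against 5.18 to 6.22) and the variable gene Med30 (39.9 against 9.40 to 15.5) were high in WT replicate 6. The stable gene Mrap2 was low in WT replicate 7 (69.3 CPM against 71.0 to 71.7).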

How the results depend on the processing

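With each library left out in turn, the median SD ran from 0.168 to 0.198, the count of genes with an SD over 0.5 from 44 to 184, and the genes shared with the 20 most variable from 13 to 19. Both lowest counts, 44 and 13, were without WT replicate 3. With the trend on GC content and length taken out, a setting chosen after seeing the data, 70 genes had an SD over 0.5. The median level of all genes, 3.58 CPM per kb, was 4.83 with the longest transcript as length, 2.65 with no filter on low values and 6.09 at 5 CPM or more, and 3.57 to 3.61 with 1 library left out. The median percentile of the peptide precursors was 87.7 at 5 CPM or more and 82.8 to 83.7 with 1 library left out. The share of the 100 most abundant genes then ran from 25.9 to 26.1%, and 24 to 25 of the 25 highest genes were shared.

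The count of genes higher in males was 2 at 5 CPM or more, where Uty and Kdm5d are not tested, and 4 to 5 with 1 library left out. The count higher in females was 0 to 1 with 1 library left out, being 1 without WT replicate 4 and without WT replicate 11. In the fits without WT replicate 4 or WT replicate 6, the female libraries, the lone female left is assumed to vary like the others. After removal of 1 residual degree of freedom, 7 genes were higher in males and 4 in females. There the prior degrees of freedom became infinite, so every gene's own spread was replaced by the shared trend, and the fit is not a stricter one.

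With the identifier prefix as a term, chosen after seeing the data, the fit has 1 residual degree of freedom. Its sex contrast compares only WT replicate 6 with WT replicate 11, so its calls are not counted here.

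Of 185 mean deviations (37 lists in 5 libraries), 18 changed sign with the trend on GC content and length taken out, 5 of them with a size over 0.1 in either setting. Mitochondrially encoded genes went from 0.16 to -0.23 in WT replicate 3, from -0.16 to 0.095 in WT replicate 4 and from -0.19 to 0.12 in WT replicate 11. For single named genes, 28 level values moved and 516 did not, all 28 with the longest transcript as length, and 14 spread values moved and 246 did not. No paired analysis was possible because the female and male libraries share no replicate number. Between 1 and 3 CPM counting alone gives a median SD of 0.17, against 0.38 observed.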
